A study of Mus musculus with 2 samples.

Results

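Lipid-associated macrophage genes are a set of 10 mouse genes: Trem2, Apoe, Spp1, Gpnmb, Fabp5, Fabp4, Lpl, Cd9, Plin2 and Abca1. They were chosen by name, and each symbol matched 1 of the 33696 mouse features that were counted. Their levels are described here across cell types, clusters and treatments in CD45+ leukocytes of MC38 tumours, which grow from a transplanted mouse colon adenocarcinoma line. All mice carried human Fcγ receptors, the receptors through which cells bind the Fc part of IgG, and all bore a subcutaneous MC38 tumour. The antibodies recognise mouse GITR, a costimulatory receptor of T cells, and carry human IgG1 Fc variants. They were given intraperitoneally at 100 µg per mouse, 2 times at an interval of 3 days, and tumours were taken 4 days after treatment.

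GITR/Syn GA-aFuc, annotated as non-agonist with an enhanced Fc, was given to 2 mice of the library analysed here. GA-aFuc, annotated as agonist with an enhanced Fc, was given to 2 mice, N297A, annotated as agonist with a null Fc, to 1 mouse, and PBS (Untreated) to 1 mouse. The study had 3 mice per treatment, and the mice of its other library were not analysed here. The age and sex of the mice are not given in the sources used here. "Fc-enhanced" below means the 4 mice given GITR/Syn GA-aFuc or GA-aFuc, and "other" means the N297A and Untreated mice.

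Macrophages that take up lipid from dying cells or from their surroundings turn on a shared set of genes, which has been described in adipose tissue, atherosclerotic plaques, brain and tumours. TREM2, a receptor for lipids and apolipoproteins, stands at the head of this program. Lipoprotein lipase and fatty acid binding proteins bring in and carry fatty acids, perilipin 2 coats the droplets in which they are stored, and ABCA1 with apolipoprotein E carries cholesterol out. Osteopontin (Spp1), the glycoprotein GPNMB and the tetraspanin CD9 are further products by which such cells are recognised.

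The annotated cells of the library numbered 10476 of 19210 in the whole annotation and came from 6 mice with 1540 to 1925 cells each. Each mouse had between 17176544 and 25808043 unique molecular identifiers (UMIs, each standing for 1 captured RNA molecule), and the median cell had 12075. Levels are given as CPM, the UMIs of a gene per 1000000 UMIs of the same cells, summed over the cells of 1 mouse. Macrophages were 5725 of the cells (826 to 1090 per mouse) and monocytes 3119 (380 to 649 per mouse). The macrophage label was checked against 7 markers, among them the complement genes C1qa, C1qb and C1qc. These summed to 11808 to 16618 CPM in macrophages, and to 5691 to 7955 CPM in the cells labelled monocytes, whose 7 monocyte markers summed to 4975 to 6122 CPM. The cells called monocytes thus carried macrophage markers as well, and 0 of the 7 genes of either list were undetected in them.

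GA-aFuc mouse 2 stood apart before any comparison. Its macrophages had 423 CPM of the monocyte gene Chil3, against 3.74 to 4.44 CPM in the other 5 mice. Other monocyte genes differed less. Plac8 was 207 CPM and Ccr2 81.5 CPM, against 100.3 and 75.3 CPM in the N297A mouse, and Ly6c2 was 86.1 CPM, below its 95.5 CPM. Monocytes of GA-aFuc mouse 2 had 132 CPM of S100a8 and 144 CPM of S100a9, both neutrophil genes, against at most 9.03 and 1.40 CPM elsewhere. The neutrophil genes Retnlg (5.15 CPM) and Cxcr2 (9.44 CPM) were also highest there. Csf3r (68.2 CPM) was not, with 78.8 CPM in GITR/Syn GA-aFuc mouse 1. The female-specific transcript Xist stood at 551 CPM in GITR/Syn GA-aFuc mouse 1 and 567 CPM in GA-aFuc mouse 1, against 1.64 to 1.98 CPM in the other 4, so both mice high in Xist were Fc-enhanced. The part of these differences in the results below was not tested, except where a fit without a mouse or with the Xist level as a term is given.

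Stretches around the transcription start are shown for 4 of the genes, in 2 pairs that each share a short motif. RefSeq windows of 300 bases (250 before the start and 50 after, GRCm38.p6) were found for 7 of the 10 genes. The E-box CACGTG, the site letters of the lysosome and lipid regulators TFEB and TFE3 and of MYC, occurred in the windows of Abca1 and Plin2. The AP-1 letters TGANTCA occurred in those of Trem2 and Gpnmb. Capitals mark the match, and both strands were searched.
Abca1, chr4:53159846-53160145, minus strand: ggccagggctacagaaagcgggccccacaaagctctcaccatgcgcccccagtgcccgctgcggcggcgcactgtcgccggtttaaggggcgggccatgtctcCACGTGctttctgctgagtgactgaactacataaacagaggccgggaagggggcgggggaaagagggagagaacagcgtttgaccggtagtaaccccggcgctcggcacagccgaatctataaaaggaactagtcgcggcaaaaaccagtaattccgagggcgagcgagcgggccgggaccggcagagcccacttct
Plin2, chr4:86670010-86670309, minus strand: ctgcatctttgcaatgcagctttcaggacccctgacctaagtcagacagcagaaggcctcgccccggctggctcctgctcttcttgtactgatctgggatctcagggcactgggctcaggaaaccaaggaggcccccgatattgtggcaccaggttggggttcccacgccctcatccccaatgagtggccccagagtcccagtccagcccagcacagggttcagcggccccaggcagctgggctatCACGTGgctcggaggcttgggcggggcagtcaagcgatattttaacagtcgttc
Trem2, chr17:48346151-48346450, plus strand: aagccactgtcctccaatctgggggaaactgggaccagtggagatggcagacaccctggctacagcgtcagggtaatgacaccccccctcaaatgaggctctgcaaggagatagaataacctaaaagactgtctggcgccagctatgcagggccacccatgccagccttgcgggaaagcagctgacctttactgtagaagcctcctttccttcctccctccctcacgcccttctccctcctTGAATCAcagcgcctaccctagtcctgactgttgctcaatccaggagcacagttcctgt
Gpnmb, chr6:49036268-49036567, plus strand: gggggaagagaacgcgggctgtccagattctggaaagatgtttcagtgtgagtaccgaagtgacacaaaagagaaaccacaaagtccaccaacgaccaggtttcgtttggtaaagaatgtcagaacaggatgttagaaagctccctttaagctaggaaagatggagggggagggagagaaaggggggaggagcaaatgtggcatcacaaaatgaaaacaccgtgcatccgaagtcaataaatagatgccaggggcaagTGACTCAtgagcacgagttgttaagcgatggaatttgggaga
The E-box starts 147 bases before the start of Abca1 and 4 bases before that of Plin2. Of 32851 promoter windows of this length, 7.15% held the E-box and 7.81% the AP-1 letters, so both are common. The DR1 repeat of PPAR, the DR4 repeat of LXR and a sterol regulatory element, bound by SREBP, occurred in 0 of the 7 members' windows, and in 0.0396%, 0.0152% and 0.0913% of all windows. This says only that these letters are not in these windows.

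The 10 genes were not equally confined to macrophages. The cell types follow the authors' annotation, which was itself made from expression, so their levels are a description with no test. Macrophages made up 54.6% of the cells and 64.3% of the UMIs, and held 91.0% of the UMIs of Lpl, 88.1% of Gpnmb, 82.4% of Trem2, 79.4% of Apoe and 76.3% of Abca1. For Fabp5, Fabp4 and Plin2 the share was 70.5%, 67.9% and 70.3%, nearer to the macrophages' share of all UMIs. Cd9 and Spp1 lay below it, with 51.1% and 42.9%.

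Trem2 averaged 324 ± 53.2 CPM in macrophages (SD over the 6 mice of all treatments) and 184 ± 22.8 CPM in monocytes, and its lowest macrophage value, 247 CPM, lay above its highest monocyte value, 212 CPM. In NK cells, CD8 T cells and cDC2 it averaged 11.4, 12.6 and 14.1 CPM. With each cell thinned to 3000 UMIs, a Trem2 UMI was found in 55.5% of macrophages (exact 95% interval 54.1% to 56.7%, for counting error only; 89.6% without thinning). The share was 3.11% of NK cells and 3.20% of CD8 T cells, which are not known to express it, at median depths of 14327 UMIs in macrophages and 8402.5 and 8505 UMIs in these cells. Apoe, the lipoprotein ligand of TREM2, followed the same order, with 7419 ± 1733 CPM in macrophages, 5265 ± 1202 CPM in monocytes, 430 CPM in cDC2 and 206 CPM in NK cells. Its thinned share reached 45.5% of CD8 T cells, and free RNA from droplets with 10 to 100 UMIs held 8568 CPM of Apoe. The part of free RNA in such shares of lymphocytes was not tested. The level in T and NK cells was 0.0410 of the free-RNA level for Apoe and 0.0405 for Trem2, nearly the same ratio. Over the other members this ratio ran from 0.0176 for Fabp4 to 2.71 for Spp1. In regulatory T cells, of which 1 mouse had at least 10, Apoe was 7305 CPM and Trem2 194 CPM, and macrophage markers summed to 6336 CPM over all regulatory T cells. Their part in these levels was not tested.

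Spp1 broke this order. It averaged 836 ± 449 CPM in NK cells, against 121 ± 66.1 CPM in monocytes, 96.6 ± 108 CPM in macrophages and 69.7 ± 17.8 CPM in CD8 T cells. NK cells were 5.77% of the cells and held 31.9% of the Spp1 UMIs. A Spp1 UMI was found in 33.9% of thinned NK cells (exact 95% interval 30.002% to 37.9%; 43.7% without thinning), and in 11.2% of macrophages and 9.21% of CD8 T cells. The NK level was 4.97 times that of free RNA, in which Spp1 stood at 169.9 CPM. By mouse, NK cells had 1247 and 1454 CPM of Spp1 with GITR/Syn GA-aFuc, 922 and 470 CPM in the GA-aFuc mice, 327 CPM under N297A and 595 CPM in the Untreated mouse. The Fc-enhanced mice were not all above the others, since GA-aFuc mouse 2 lay below the Untreated mouse. NK clusters differed widely, with 1644 CPM in cluster 48, 1024 CPM in cluster 20 and 912 CPM in cluster 58, against 132 CPM in cluster 19 and 24.4 CPM in cluster 26.

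Fabp5, a carrier of fatty acids in the cytosol, was highest in mregDC, the mature dendritic cells marked by Ccr7. The 2 mice with at least 10 such cells had 1086 and 2346 CPM. The other types averaged 122 ± 116 CPM in macrophages, 80.1 ± 49.8 CPM in monocytes, 70.0 ± 21.4 CPM in CD8 T cells and 52.7 ± 32.1 CPM in cDC2. A Fabp5 UMI was found in 81.1% of 53 thinned mregDC (exact 95% interval 68.0% to 90.6%; 87.3% without thinning) and in 12.0% of macrophages. These 55 cells, 0.525% of all, held 7.54% of the Fabp5 UMIs. Its relative Fabp4, best known from fat cells, had 165 UMIs in all and averaged 1.42 CPM in macrophages and 1.44 CPM in monocytes. Free RNA held 4.53 CPM of Fabp4, and with so few UMIs its level in these classes is known only roughly.

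Cd9, a tetraspanin that organises membrane proteins, was higher in the other myeloid types than in macrophages, with 230 CPM in cDC1 (2 mice), 208 ± 55.9 CPM in monocytes and 156 ± 36.4 CPM in cDC2, against 98.6 ± 26.0 CPM in macrophages and 95.5 ± 17.2 CPM in NK cells. The spreads of monocytes and cDC2 overlap, as do those of macrophages and NK cells, but the types come from the same mice. Within each mouse Cd9 was higher in monocytes than in cDC2. In GITR/Syn GA-aFuc mouse 1 the values were nearly equal, with 162.2 and 162.0 CPM. Plin2, the coat protein of lipid droplets, averaged 314 ± 92.4 CPM in monocytes and 297.1 ± 116 CPM in macrophages, with overlapping spreads. It averaged 67.8 ± 19.8 CPM in cDC2. Within mice Plin2 was higher in monocytes than in macrophages, except in GA-aFuc mouse 2 (496 and 532 CPM). Abca1, the exporter of cholesterol, averaged 212 ± 48.1 CPM in macrophages and 186 ± 74.0 CPM in monocytes, again with overlapping spreads. It averaged 6.56 CPM in cDC2 and 9.63 CPM in NK cells. Within mice Abca1 was higher in monocytes with GA-aFuc and higher in macrophages in the other mice. Lpl, which splits triglycerides of lipoproteins, averaged 46.6 ± 15.9 CPM in macrophages and 12.3 ± 3.70 CPM in monocytes, without overlap. Gpnmb, a lysosomal and membrane glycoprotein, averaged 14.6 ± 10.8 CPM in macrophages and 4.35 ± 2.52 CPM in monocytes, and was found in only 2.15% of thinned macrophages.

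**Figure D1:**
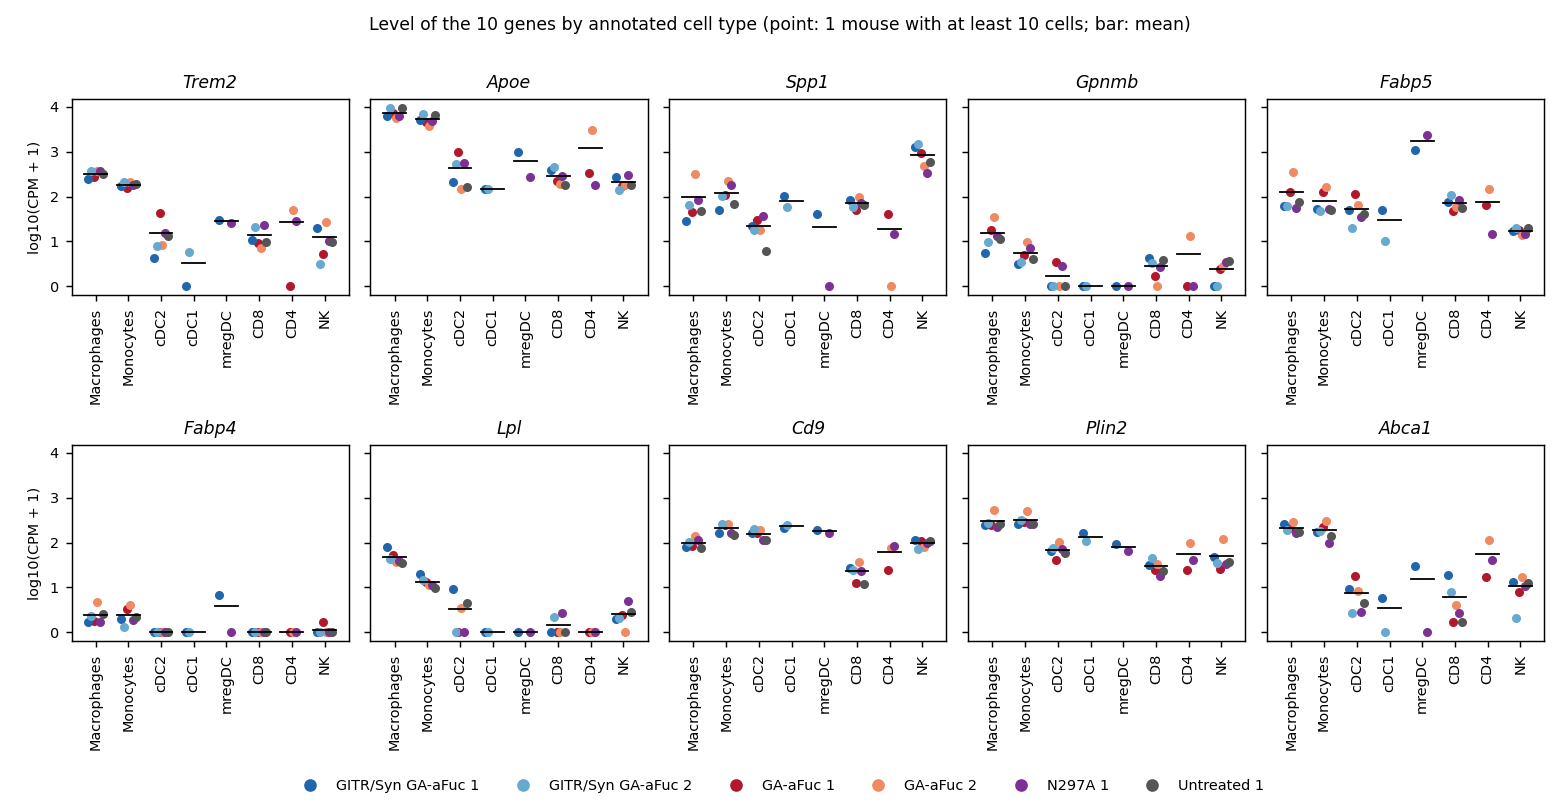
Level of each of the 10 genes (log10 of CPM + 1) in 8 annotated cell types, with 1 point per mouse that had at least 10 cells of the type and a bar at their mean. Trem2, Apoe, Lpl and Abca1 stand highest in macrophages and monocytes, Spp1 in NK cells (mean 836 CPM) and Fabp5 in mregDC (1086 and 2346 CPM).

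Within macrophages of all mice pooled, 4 of the 10 genes were concentrated in 2 of the authors' clusters. Clusters 9 (333 cells) and 12 (278 cells) were 10.7% of macrophages with 8.94% of their UMIs. They held 76.1% of the macrophage UMIs of Gpnmb, 74.1% of Fabp4, 60.3% of Fabp5 and 53.3% of Spp1. For Plin2 and Cd9 the share was 22.5% and 21.4%, and for Abca1, Trem2, Apoe and Lpl 17.2%, 16.0%, 15.5% and 11.4%. Over the pooled mice Gpnmb, Fabp4, Fabp5 and Spp1 were thus concentrated in a small subset, and Trem2, Apoe, Lpl and Abca1 were spread more widely. The mice differed in this. Cluster 9 held 52 of 713 and 1679 of 3324 macrophage Spp1 UMIs in the GA-aFuc mice. It held 55 of 406 and 214 of 1049 with GITR/Syn GA-aFuc, 230 of 1077 under N297A and 186 of 664 after PBS. The Fabp4 share rests on 112 macrophage UMIs, of which 16 lay in 1 cell of the Untreated mouse. Outside these clusters macrophages had 3.55 CPM of Gpnmb and 48.6 CPM of Fabp5, but 296 CPM of Trem2 and 191 CPM of Abca1.

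The 2 clusters had different members at their top. Cluster 9 had 739 CPM of Spp1, 181 CPM of Gpnmb, 677 CPM of Fabp5, 1116 CPM of Plin2 and 349 CPM of Cd9, with 407 CPM of Trem2 and 6065 CPM of Apoe. Cluster 12 had 705 CPM of Trem2, 18427 CPM of Apoe and 808 CPM of Fabp5, with 332 CPM of Spp1 and 65.4 CPM of Gpnmb. Macrophage markers summed to 7115 CPM in cluster 9 and 17763 CPM in cluster 12, and monocyte markers to 1247 and 376 CPM. Over the pooled mice Spp1, Gpnmb and Plin2 led in cluster 9, which had the lower macrophage marker level, and Trem2 and Apoe in cluster 12. For Spp1 the mice differed. Cluster 9 had 308 and 324 CPM with GITR/Syn GA-aFuc, 131 and 1324 CPM with GA-aFuc, 407 CPM under N297A and 922 CPM after PBS. In GA-aFuc mouse 1 and both GITR/Syn GA-aFuc mice it thus lay below the pooled 332 CPM of cluster 12. Cluster 39 (142 cells) was another site of Plin2 (630 CPM), Spp1 (363 CPM) and Cd9 (207 CPM). Cluster 30 had Abca1 at 464 CPM, and the highest Lpl, 72.0 CPM, was in cluster 51. Among monocytes, cluster 0 had the highest Cd9 (488 CPM) and 388 CPM of Abca1, and cluster 8 had 660 CPM of Plin2 and 392 CPM of Spp1.

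**Figure D2:**
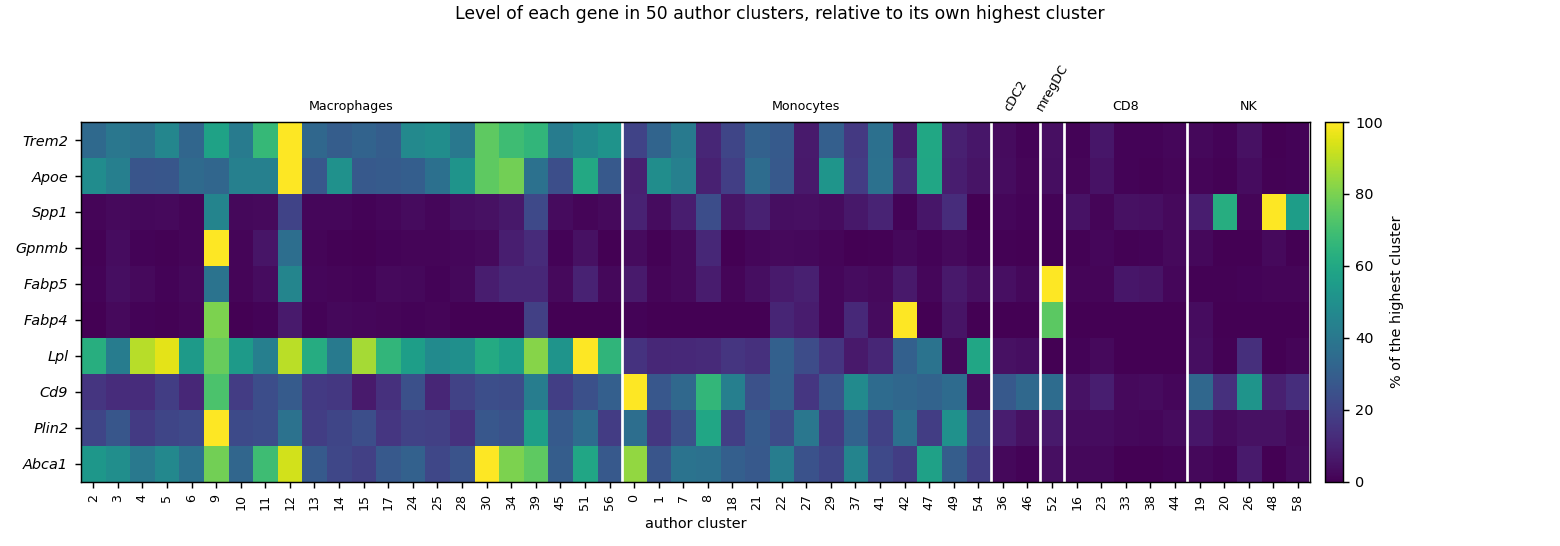
Level of each gene in the 50 author clusters with at least 50 cells, as a percentage of the gene's own highest cluster, with clusters grouped by annotated cell type. All mice are pooled, and by mouse Spp1 in cluster 9 ran from 131 to 1324 CPM. Clusters 9 and 12 stand out in the macrophage block for Gpnmb (181 and 65.4 CPM) and Fabp5 (677 and 808 CPM), and Spp1 is highest there in clusters 9, 39 and 12 (739, 363 and 332 CPM), whereas Trem2, Apoe and Abca1 run through the whole block.

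Across the 22 macrophage clusters, Spp1 and Gpnmb were alike (Pearson's r of log2(CPM + 10) of 0.91), as were Gpnmb and Fabp5 (0.89), whereas Apoe and Lpl were not (-0.06). Over all 50 clusters Trem2 and Apoe had an r of 0.97, against 0.58 within macrophage clusters. Clusters share mice and 1 library, so these are descriptions. Of 6302 genes, those closest to Trem2 were Rnase4 (0.97), Adgre1 and Itgb5. Closest to Apoe were Itgb5 (0.97), Adgre1 and Lgmn, and to Lpl the lysosomal lipase Lipa (0.93), Zfp704 and Sec14l1. Spp1 stood apart from these with Hilpda (0.75), a hypoxia-induced droplet protein, the glycolytic enzyme Eno1 and Jmjd6. Plin2 was closest to Fnip2 (0.95), the proton pump subunit Atp6v1b2 and Sdcbp, and Abca1 to the complement receptor C5ar1 (0.95), the lysosomal protease Ctsb and Slc43a2. The highest values of Fabp5 (Rftn1 0.72, Nrp2, Klf6) and Cd9 (Arrdc4 0.76, Pik3cb) were near that of Spp1. All of these lay below the highest values of the other genes ranked. Gpnmb and Fabp4 averaged under 20 CPM and were not ranked.

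The treatments were compared on UMIs summed per mouse in an edgeR quasi-likelihood fit of all genes. The p-values below are adjusted by Benjamini-Hochberg over all genes of a fit, and a gene was called at an adjusted p under 0.05. N297A and Untreated have 1 mouse each and are assumed to vary like the treatments with 2 mice, and residual degrees of freedom are 2. GA-aFuc is a common side of 3 of the comparisons, so their values are not independent.

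Only 2 of the 10 members were called, both in monocytes: Fabp5, which was higher with the agonist Fc-enhanced antibody than with each of the other treatments it was set against, and Abca1, which was higher with it than with the Fc-null antibody. Fabp5 in monocytes was 50.6 and 46.7 CPM with GITR/Syn GA-aFuc, 123 and 162 CPM with GA-aFuc, 51.0 CPM under N297A and 47.8 CPM after PBS. Both GA-aFuc mice were thus above the other 4 mice, which lay close to each other. Fabp5 rose by 1.55 ± 0.24 (log2, SE) in GA-aFuc over Untreated (edgeR adjusted p = 0.0275), and by 1.43 ± 0.23 over N297A (edgeR adjusted p = 0.0188). In GITR/Syn GA-aFuc against GA-aFuc its log2 fold change was -1.55 ± 0.18 (edgeR adjusted p = 0.00459). The Fabp5 calls make up 1 of 10 members in the first and last of these comparisons, where 0.176% and 0.109% of 11920 genes were called. In GA-aFuc against N297A 2 of 10 members were called, beside 0.579% of all genes.

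The Fabp5 UMIs of monocytes were unevenly spread over cells. The 1% of monocytes with the most Fabp5 UMIs held 23.5% and 21.7% of them with GITR/Syn GA-aFuc, 32.2% and 27.9% in the GA-aFuc mice, 22.3% under N297A and 19.8% in the Untreated mouse. Monocytes with at least 10 Fabp5 UMIs numbered 3 and 4 with GITR/Syn GA-aFuc, 10 and 17 in the GA-aFuc mice, 4 under N297A and 1 in the Untreated mouse. Without these cells the Fabp5 level was 42.7 and 39.2 CPM with GITR/Syn GA-aFuc, 58.1 and 81.9 CPM with GA-aFuc, 41.9 CPM with N297A and 44.8 CPM without antibody. These cells were chosen by their Fabp5 UMIs, which lowers the mice that have most of them, so the values are a description. Without GITR/Syn GA-aFuc mouse 1 the Fabp5 fold changes stay at 1.55, 1.43 and -1.55, and the 3 adjusted p-values in edgeR are 0.110, 0.0721 and 0.228. Without the 1% of monocytes with the most UMIs of all genes they are 0.152, 0.0755 and 0.0472.

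Abca1 in monocytes was 168 and 178 CPM with GITR/Syn GA-aFuc, 225 and 309 CPM with GA-aFuc, 96.3 CPM under N297A and 138 CPM after PBS. The order was GA-aFuc, then GITR/Syn GA-aFuc, then the Untreated and N297A mice, with no overlap between these steps. It rose by 1.42 ± 0.25 (log2, SE) in GA-aFuc over N297A (edgeR adjusted p = 0.0254). In GA-aFuc over Untreated its log2 fold change of 0.92 ± 0.24 did not pass (edgeR adjusted p = 0.279), nor did -0.62 ± 0.19 in GITR/Syn GA-aFuc against GA-aFuc (edgeR adjusted p = 0.565). For the 4 Fc-enhanced mice against the other 2 it was 0.86 ± 0.17, just outside the threshold (edgeR adjusted p = 0.0577), and 0 of 10 members were called where 0.344% of genes were. Unlike Fabp5, Abca1 was spread over many cells: a UMI was found in 48.3% and 57.6% of monocytes with GITR/Syn GA-aFuc, 55.3% and 66.4% with GA-aFuc, 42.7% with N297A and 51.8% in the Untreated mouse. The call against N297A is lost without GITR/Syn GA-aFuc mouse 1 (adjusted p = 0.0721) and with equal cells per mouse (0.0502). The Fc-enhanced difference passes in DESeq2 (adjusted p = 0.00234) and, without the N297A mouse, is 0.61 with an adjusted p of 0.9998.

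The other 8 members were not called in monocytes in any of the 6 comparisons. In GA-aFuc over Untreated 5 of the 10 members had an unadjusted p under 0.05, beside 6.57% of all genes. Beside Fabp5 and Abca1 these were Spp1, Cd9 and Apoe (1.28 ± 0.45, 0.80 ± 0.29 and -0.67 ± 0.25), all with adjusted p-values from 0.589 to 0.672 in edgeR. In GITR/Syn GA-aFuc against GA-aFuc it was under 0.05 for 7 of the 10 members, where 5.06% of all genes had such a p. Beside Fabp5 and Abca1 these were Fabp4 (-2.16 ± 0.76), Gpnmb (-1.47 ± 0.46), Spp1 (-1.06 ± 0.35), Lpl (0.55 ± 0.24) and Apoe (0.53 ± 0.21), with adjusted p-values from 0.586 to 0.927 in edgeR. Of these 7, then, 5 had a lower and 2 a higher estimate with GITR/Syn GA-aFuc. The Fabp4 estimate rests on 4 and 2 UMIs with GITR/Syn GA-aFuc and 9 and 14 UMIs with GA-aFuc. In GITR/Syn GA-aFuc over Untreated Lpl had 0.91 ± 0.30 (edgeR adjusted p = 0.9996). In Fc-enhanced over other 4 members had an unadjusted p under 0.05, beside 8.54% of all genes. They were Abca1, Fabp5 (0.71 ± 0.16), Cd9 (0.56 ± 0.20) and Lpl (0.46 ± 0.21), the last 3 with edgeR adjusted p-values of 0.106, 0.406 and 0.583. Cd9 in monocytes was 162 and 259 CPM with GITR/Syn GA-aFuc, 251 and 265 CPM with GA-aFuc, 165 CPM under N297A and 145 CPM after PBS. Of the 4 Fc-enhanced mice, 3 were above both others, and GITR/Syn GA-aFuc mouse 1 lay between the N297A and Untreated mice. Spp1 was 49.9 and 104 CPM with GITR/Syn GA-aFuc and 108 and 218 CPM with GA-aFuc. It was 182 CPM with N297A and 65.9 CPM in the Untreated mouse. GA-aFuc mouse 1 and GITR/Syn GA-aFuc mouse 2 were nearly equal. On CPM scaled by the TMM factors of edgeR their order turned, with 106.9 and 107.2 CPM. Spp1 in N297A over Untreated was 1.49 ± 0.50 (unadjusted p = 0.0115 in edgeR) and did not pass. Trem2 was 172 and 206 CPM with GITR/Syn GA-aFuc, 150.0 and 212 CPM with GA-aFuc, 180 CPM with N297A and 186 CPM without antibody. The groups overlap, and the log2 fold changes of Trem2 in edgeR lay between -0.06 and 0.07 over the 6 comparisons. In GITR/Syn GA-aFuc over Untreated and in N297A over Untreated edgeR called 0 members of 10 and 0 of 11920 genes (0%); 291 and 298 genes had an unadjusted p under 0.05, and DESeq2 called 2 and 4 genes, none of them a member.

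In macrophages 0 of 10 members were called in any of the 6 comparisons with edgeR, where 0.00697% of 14340 genes were called in GITR/Syn GA-aFuc against GA-aFuc and 0% in the other 5. DESeq2 called 1, Gpnmb in GITR/Syn GA-aFuc against GA-aFuc (adjusted p = 0.00378). An unadjusted p under 0.05 was found for 2 members in GA-aFuc over Untreated and 1 in GA-aFuc over N297A, beside 3.04% and 3.23% of all genes. It was found for 3 in GITR/Syn GA-aFuc against GA-aFuc and 1 in Fc-enhanced over other, beside 2.52% and 3.33%. In GITR/Syn GA-aFuc over Untreated and N297A over Untreated it was found for 0, beside 1.29% and 2.07%. The members with such a p were Fabp5, Gpnmb and Spp1. Without GA-aFuc mouse 1 edgeR called 3 members in GA-aFuc over Untreated, 3 over N297A, 4 in GITR/Syn GA-aFuc against GA-aFuc and 2 in Fc-enhanced over other, and without GA-aFuc mouse 2 it called 2 in GITR/Syn GA-aFuc against GA-aFuc. With the Xist level as a term beside treatment it called 3 members each in GA-aFuc over Untreated, over N297A and in GITR/Syn GA-aFuc against GA-aFuc, and 2 in Fc-enhanced over other, but this fit has 1 residual degree of freedom and edgeR then assumed a common spread for all genes, so its calls are not comparable with the others. The share of all genes called in the DESeq2 fit and in these refits is not reported here, so these counts are not shown to be particular to the members. Cluster 9 cells were 1.48% and 5.69% of macrophages with GITR/Syn GA-aFuc, 3.49% and 17.9% in the GA-aFuc mice, 6.49% under N297A and 1.91% in the Untreated mouse, so 148 of its 333 cells came from GA-aFuc mouse 2.

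Fabp5 in macrophages was 60.7 and 60.5 CPM with GITR/Syn GA-aFuc, 128 and 353 CPM with GA-aFuc, 55.0 CPM under N297A and 76.3 CPM after PBS. Both GA-aFuc mice were above the other 4, as in monocytes, but differed from each other by more than the rest did. Its log2 fold change was 1.60 ± 0.52 in GA-aFuc over Untreated, 2.07 ± 0.54 over N297A and -1.995 ± 0.408 in GITR/Syn GA-aFuc against GA-aFuc, with edgeR adjusted p-values of 0.9998, 0.9695 and 0.99995. Without cluster 9 the levels were 53.5 and 40.4 CPM with GITR/Syn GA-aFuc, 107 and 294 CPM with GA-aFuc, 37.0 CPM with N297A and 69.4 CPM in the Untreated mouse, in the same order. In cluster 12 alone they were 268 and 145 CPM with GITR/Syn GA-aFuc, 1006 and 2678 CPM with GA-aFuc, 122 CPM under N297A and 885 CPM after PBS, where the Untreated mouse lay close to GA-aFuc mouse 1. Macrophages with at least 10 Fabp5 UMIs numbered 22 and 20 with GITR/Syn GA-aFuc, 53 and 78 with GA-aFuc, 14 under N297A and 21 after PBS.

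Gpnmb in macrophages was 4.51 and 8.52 CPM with GITR/Syn GA-aFuc, 17.3 and 34.8 CPM with GA-aFuc, 12.0 CPM under N297A and 10.2 CPM after PBS. The GA-aFuc mice were highest and the GITR/Syn GA-aFuc mice lowest, without overlap. The log2 fold change in GITR/Syn GA-aFuc against GA-aFuc was -1.98 ± 0.40 (unadjusted p = 0.000950, edgeR adjusted p = 0.99995). Without cluster 9 the levels were 3.89 and 3.31 CPM with GITR/Syn GA-aFuc, 8.46 and 17.2 CPM with GA-aFuc, 4.41 CPM under N297A and 7.30 CPM after PBS, and the GA-aFuc mice were still the highest. Spp1 was 27.3 and 62.9 CPM with GITR/Syn GA-aFuc, 44.9 and 313 CPM with GA-aFuc, 84.2 CPM with N297A and 46.9 CPM in the Untreated mouse. Only GA-aFuc mouse 2 stood out, and GA-aFuc mouse 1 lay below the Untreated mouse. In GA-aFuc mouse 2 cluster 9 had 1324 CPM of Spp1, and the highest single cell 226 Spp1 UMIs; without cluster 9 its Spp1 was 176 CPM.

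Plin2 showed the same single mouse, with 251 and 269 CPM with GITR/Syn GA-aFuc, 250.1 and 532 CPM with GA-aFuc, 223 CPM with N297A and 257 CPM without antibody. Without cluster 9 the value of GA-aFuc mouse 2 was 371 CPM and the other 5 stayed below it, with the N297A mouse lowest at 200.5 CPM. Trem2, at 247 and 368 CPM with GITR/Syn GA-aFuc, 272 and 367 CPM with GA-aFuc, 366 CPM with N297A and 323 CPM without antibody, was lowest in the 2 mice high in Xist. The treatments overlap for Trem2. Apoe was 6285 and 9625 CPM with GITR/Syn GA-aFuc, 7267 and 5606 CPM with GA-aFuc, 6261 CPM under N297A and 9471 CPM after PBS, again with overlap. Lpl was 76.8 and 42.8 CPM with GITR/Syn GA-aFuc, 50.9 and 36.3 CPM with GA-aFuc, 38.3 CPM with N297A and 34.7 CPM without antibody, so its 2 highest values were those of the mice high in Xist. Cd9 was 80.2 and 100.6 CPM with GITR/Syn GA-aFuc, 81.4 and 142 CPM with GA-aFuc, 113 CPM under N297A and 73.8 CPM after PBS, with overlap throughout.

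Abca1 in macrophages was 258 and 194 CPM with GITR/Syn GA-aFuc, 207 and 282 CPM with GA-aFuc, 162 CPM under N297A and 171 CPM after PBS. All 4 Fc-enhanced mice were above both others. The log2 fold change of Fc-enhanced over other was 0.43 ± 0.19 (edgeR adjusted p = 0.930), and 0.49 ± 0.19 when the mice high in Xist were left out of a fit with 2 groups. This separation, on CPM scaled by the TMM factors of edgeR, was found for 1 of 10 members, Abca1, in macrophages, where 8.48% of genes showed it, and for 1 of 10, again Abca1, in monocytes, where 10.3% did. A count of 1 in 10 is near these shares. Both GA-aFuc mice above the other 4 was found for 2 of 10 members in macrophages (Fabp5 and Gpnmb; 5.21% of genes) and for 3 of 10 in monocytes (Fabp5, Fabp4 and Abca1; 9.92% of genes). Fabp4 in monocytes rests on 9 and 14 UMIs in the GA-aFuc mice and 2 to 6 in each of the others. Both GA-aFuc mice below the other 4 was found for 1 of 10 members in monocytes, Apoe, beside 7.96% of genes. In macrophages it was found for 0 of 10, and the share of all genes there is not reported here.

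**Figure D3:**
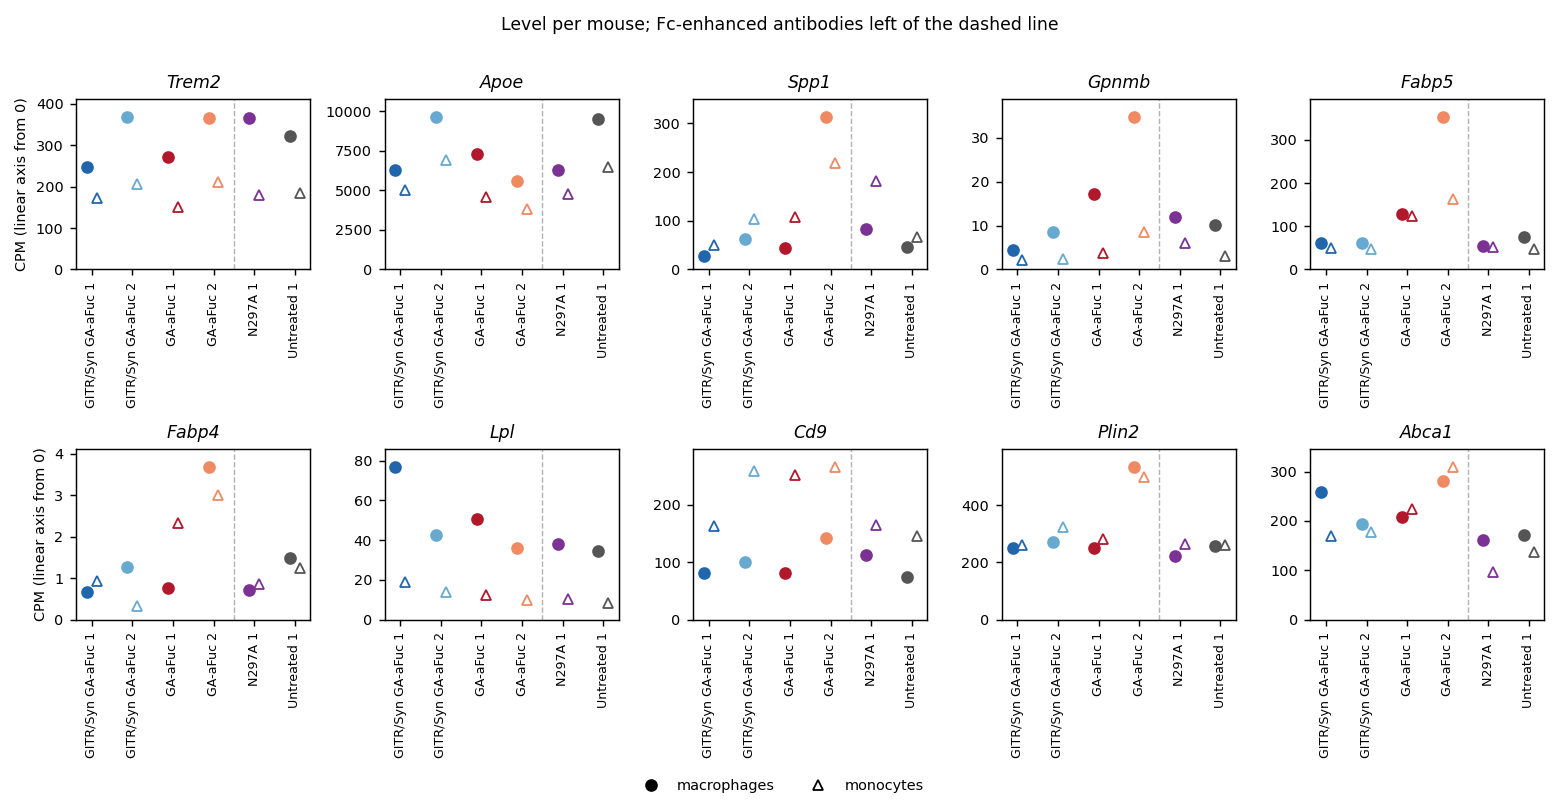
Level of each gene (CPM, linear axis from 0) in each of the 6 mice, in macrophages (filled circles) and monocytes (open triangles), with the Fc-enhanced antibodies left of the dashed line. Fabp5 is highest in the 2 GA-aFuc mice in both classes (128 and 353 CPM in macrophages), Spp1 and Plin2 of macrophages are high in GA-aFuc mouse 2 alone (313 and 532 CPM), and Abca1 lies higher left of the line.

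**Figure D4:**
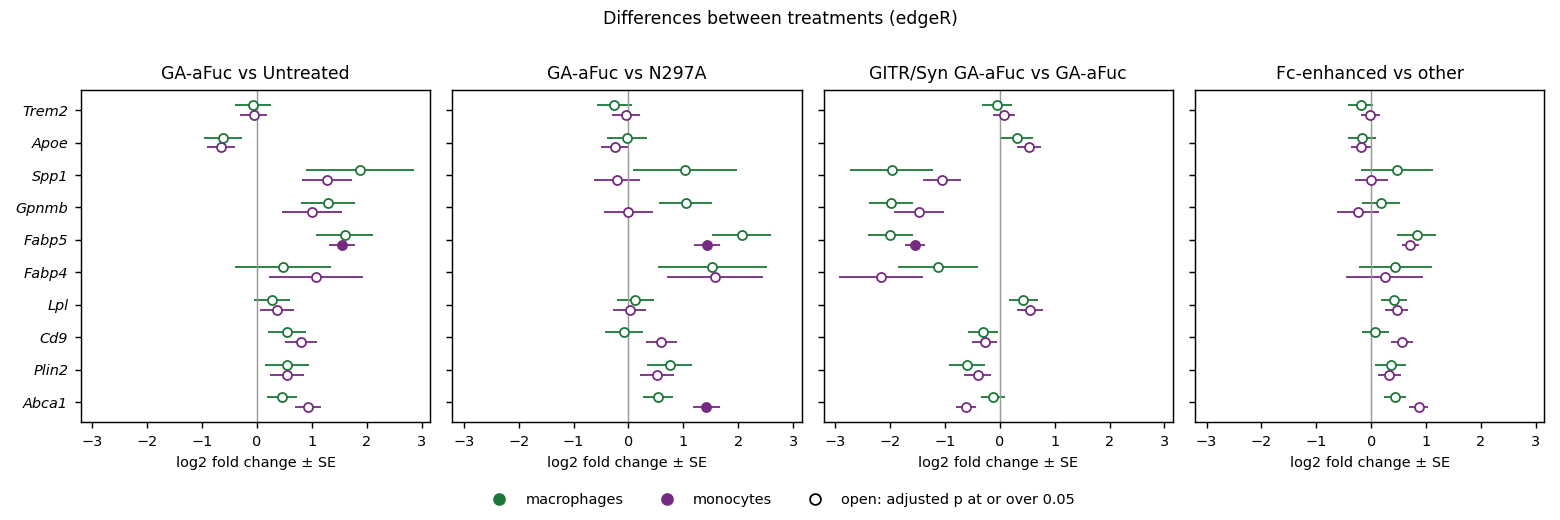
Log2 fold change with its SE (edgeR) of the 10 genes in 4 comparisons, in macrophages (green) and monocytes (purple), with filled points for an adjusted p under 0.05. Filled points are Fabp5 in 3 comparisons and Abca1 in GA-aFuc against N297A (1.42), all in monocytes; the macrophage estimates of Fabp5 lie on the same side with wider errors.

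Whether monocytes and macrophages differed in their response was tested with a mouse block over 13857 genes. The difference of Abca1 in GA-aFuc over N297A was 0.89 ± 0.19 (log2, monocyte minus macrophage; edgeR adjusted p = 0.350), and that of Fabp5 was -0.48 ± 0.32 (edgeR adjusted p = 0.934). edgeR called 0 of 10 members in each of the 6 comparisons, beside 0% of genes in 5 and 0.00722% in GITR/Syn GA-aFuc against GA-aFuc. At most 3 members had an unadjusted p under 0.05, in GA-aFuc over N297A, where 798 of 13857 genes had one. DESeq2 was not run on this difference. The calls in monocytes and their absence in macrophages are thus not shown to differ. In dendritic cells, with 47 to 83 cells per mouse and 7 members tested, edgeR and DESeq2 called 0 members, beside 0.0117% of 8557 genes in GA-aFuc over Untreated, 0% in GITR/Syn GA-aFuc over Untreated, 0.14% in GITR/Syn GA-aFuc against GA-aFuc and 0.0234% in the other 3 in edgeR. An unadjusted p under 0.05 was found for Fabp5 in GITR/Syn GA-aFuc against GA-aFuc (-0.90 ± 0.39) and Abca1 in Fc-enhanced over other (1.97 ± 0.83). Of all genes, 7.16% and 6.14% had such a p. The Abca1 value rests on 2 to 14 UMIs per mouse. The Fabp5 value rests on GA-aFuc mouse 2. Fabp5 was 223 and 160 CPM with GITR/Syn GA-aFuc and 160 and 555 CPM with GA-aFuc (CPM scaled by TMM). In GA-aFuc mouse 2, 317 of the 345 dendritic Fabp5 UMIs lay in 8 mregDC. All 4 Fc-enhanced mice lay above both others for 2 of 7 members in dendritic cells, Abca1 and Cd9, beside 6.7% of genes, and both GA-aFuc mice above the other 4 for 0 of 7, beside 8.27%.

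The comparison was then repeated inside clusters, so that the share of a cluster in each mouse does not enter. In 20 macrophage clusters and 11 monocyte clusters with at least 10 cells from every mouse, Abca1 was higher in Fc-enhanced than in other mice in 19 of 20 (median log2 ratio of means, with 10 CPM added, 0.42) and in 9 of 11 (0.64). All 4 Fc-enhanced mice lay above both others for Abca1 in 8 macrophage and 2 monocyte clusters. Over all genes averaging at least 20 CPM in these clusters (6186 in macrophages and 5880 in monocytes), 9.88% and 8.17% of gene and cluster pairs showed this, and 5.72% and 7.5% showed all 4 below. Of these genes, 6.35% were higher in at least 19 macrophage clusters and 1.89% lay above in at least 8. In monocytes 17.1% were higher in at least 9 clusters and 23.2% lay above in at least 2, so the monocyte counts of Abca1 are near those of many genes. In monocyte cluster 0 Abca1 was 458 and 431 CPM with GITR/Syn GA-aFuc, 481 and 512 CPM with GA-aFuc, 131 CPM with N297A and 202 CPM without antibody, the largest ratio of Abca1 among the 11 monocyte clusters. Fabp5 was higher in 17 of 20 and 11 of 11 clusters (medians 0.51 and 0.64), where 18.1% and 2.86% of genes were higher in as many. The Fc-enhanced mean pools 2 antibodies. In whole monocytes Fabp5 was 50.6 and 46.7 CPM with GITR/Syn GA-aFuc, near N297A (51.0 CPM) and Untreated (47.8 CPM). Lpl was higher in 19 of 20 and 9 of 11 (0.51 and 0.25, beside 6.35% and 17.1% of genes). Plin2 was higher in 18 of 20 and 10 of 11 (0.22 and 0.33, beside 11.7% and 8.62% of genes). Trem2 was higher in 5 of 20 and 6 of 11 (-0.11 and 0.01), and in 4 macrophage clusters all Fc-enhanced mice were below both others. Apoe was higher in 7 of 20 and 5 of 11 (-0.14 and -0.07), Spp1 in 6 of 20 and 5 of 11 (-0.23 and -0.06), Gpnmb in 10 of 20 and 8 of 11 (0.01 and 0.13), Cd9 in 9 of 20 and 10 of 11 (-0.02 and 0.35) and Fabp4 in 7 of 20 and 3 of 11 (0.00 in both). The median gene was higher in 12 of 20 macrophage and 6 of 11 monocyte clusters. All 4 Fc-enhanced mice lay above both others for Lpl in 6 macrophage clusters, Fabp5 in 3, Plin2 in 2 and Cd9 in 1, and in monocytes for Gpnmb and Cd9 in 2 each and Fabp5 and Plin2 in 1 each. In macrophages 6.34%, 32.1%, 48.7% and 72.4% of genes reached at least 6, 3, 2 and 1 such clusters. In monocytes 23.2% reached at least 2 and 52.9% at least 1. The clusters share the same 6 mice, so these counts are not independent and carry no test.

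**Figure D5:**
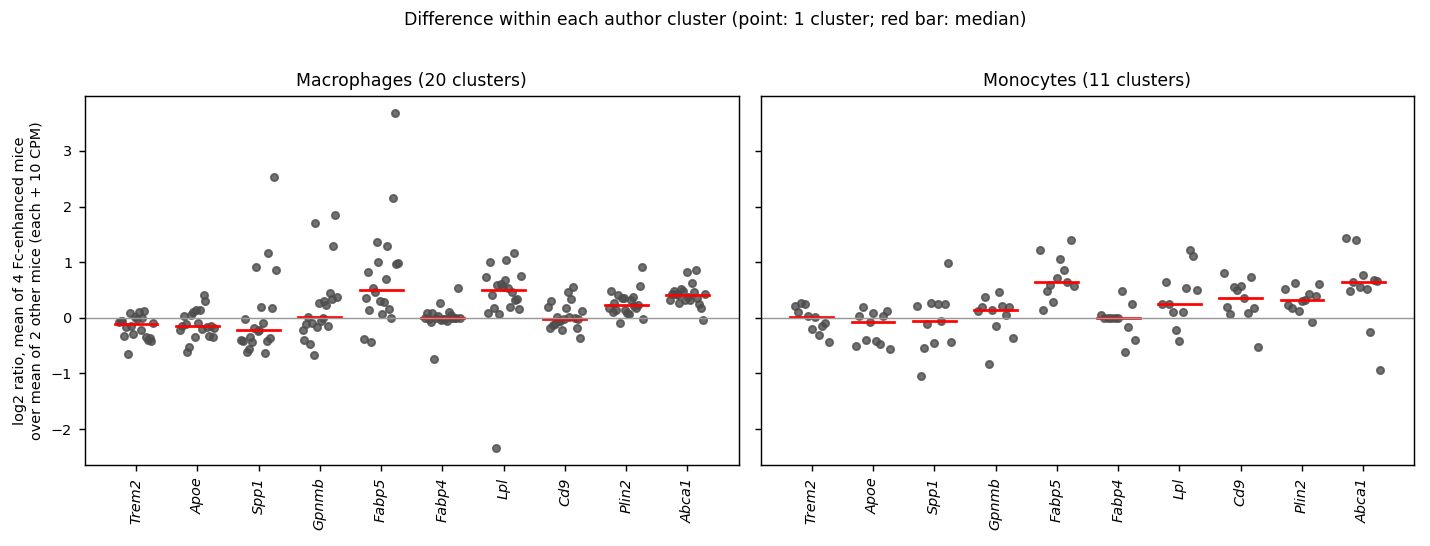
Log2 ratio of the mean of the 4 Fc-enhanced mice to the mean of the 2 other mice (each with 10 CPM added) inside each author cluster, with 1 point per cluster and a red bar at the median. Abca1 and Lpl lie above 0 in 19 of 20 macrophage clusters, as 6.35% of genes do in at least 19, and Trem2 in 5 of 20.

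Further lists of related genes were set beside the members, in macrophages and monocytes and over the same 6 comparisons, and 0 genes of any list were called with edgeR or DESeq2. In Fc-enhanced over other 4 of 53 list genes in macrophages and 9 of 50 in monocytes had an unadjusted p under 0.05 in edgeR (7.55% and 18.0%), beside 3.33% and 8.54% of all genes. The lists were liver X receptor targets and cholesterol efflux (13 of 13 tested in both classes), PPAR and fatty acid use (11 and 10 of 12), lipid droplets (7 of 10), sterol synthesis and uptake under SREBP2 (10 of 10), signalling partners of TREM2 (6 of 6), and fatty acid binding and transport (6 and 4 of 10). In Fc-enhanced over other the SREBP2 list had 10 of 10 genes with a positive fold change in both classes, with a median of 0.22 in macrophages and 0.25 in monocytes, where the median over all genes was 0.02. The estimates were also mostly positive between the 2 mice without an enhanced Fc: N297A over Untreated had 8 of 10 (median 0.17) in macrophages and 9 of 10 (0.21) in monocytes. GA-aFuc over N297A had 6 of 10 in both classes (0.09 in each). Scd2, a fatty acid desaturase, had 0.58 ± 0.27 in macrophages and 0.37 ± 0.19 in monocytes (edgeR adjusted p = 0.930 and 0.618). The median of the efflux list, to which Abca1 is related, was 0.10 in macrophages and -0.09 in monocytes. In that list Pltp, a phospholipid transfer protein, had -0.54 ± 0.15 in macrophages and -0.71 ± 0.15 in monocytes (edgeR adjusted p = 0.930 and 0.0829), opposite in sign to Abca1.

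The fatty acid receptor Cd36 had 1.45 ± 0.63 in macrophages and 1.34 ± 0.34 in monocytes in Fc-enhanced over other (edgeR adjusted p = 0.930 and 0.168). It was 49.8 and 32.6 CPM in macrophages of the GITR/Syn GA-aFuc mice, 38.98 and 259.7 CPM in those of the GA-aFuc mice, 36.3 CPM under N297A and 22.6 CPM in the Untreated mouse (CPM scaled by TMM), so that GA-aFuc mouse 2 again stood alone. Hilpda had 0.89 ± 0.59 and 1.15 ± 0.36 (edgeR adjusted p = 0.930 and 0.301), and in macrophages was 20.6 and 50.6 CPM with GITR/Syn GA-aFuc, 40.5 and 202 CPM with GA-aFuc, 49.3 CPM under N297A and 25.5 CPM after PBS. The median of the TREM2 partners was -0.01 in macrophages and -0.07 in monocytes, that of the PPAR list -0.02 and 0.03, and that of the droplet list -0.04 and -0.05. The transport list had 0.39 and 0.19, with the scavenger receptor Msr1 at 0.51 ± 0.16 in macrophages (edgeR adjusted p = 0.930).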

How the data were processed

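Single CD45+ cells of tumours from 6 hashed mice were profiled with 10x 3′ chemistry. The deposited matrix holds raw UMI counts per barcode, made with Cell Ranger 9.0.0 against GRCh38 and GRCm39 together, per the submitters' processing notes. The authors' annotation gave cell types, clusters and treatments. It names no mice, which were taken as the runs of rising barcodes, and the top hashtag matched the run in 10476 of 10476 cells. Human features held 0.591% of the UMIs, and 34 barcodes also occur in the annotation of the other library.

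UMIs were summed per mouse and class and tested with edgeR 4.0.16 (filterByExpr, TMM, quasi-likelihood test, R 4.3.3) over 4 treatments, with the SE taken as the fold change over the root of F. DESeq2 1.42.0 was an alternative, and Python 3.11.15 was used for levels and shares. Alternatives also covered filters, cells, clusters and each mouse left out. No doublets were called beyond the authors' annotation, whose handling of them the sources used here do not state, and an alternative left out the 1% of cells with most UMIs. On simulated counts for GA-aFuc against Untreated in monocytes (11673 genes), the test found 42 of 100 simulated 2-fold changes and 98 of 100 simulated 8-fold changes, and made 8 false calls. In macrophages (13996 genes) it found 29 and 97 of 100 and made 5 false calls. The simulated spread followed the trend over genes, so these figures do not apply to genes that vary more between mice.

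The members, lists and tests were chosen with earlier results of these data known. All members were named in every comparison, with the 3 genes most alike each, and up to 3 genes per list with the smallest unadjusted p in Fc-enhanced over other. Some genes that this rule names are not reported here. Whether mice were housed or processed separately is not given, so p-values measure at most the spread between these mice. In edgeR the spread of a gene is also drawn toward that of other genes. Beside the 2 residual degrees of freedom, other genes add a median of 6.35 in macrophages and 10.1 in monocytes. Only the GA-aFuc and GITR/Syn GA-aFuc mice give replicate spread, and each of these pairs holds 1 mouse high in Xist.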

Additional observations from a re-analysis of the deposited data

Results flagged for a closer look

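Among the 4 Fc-enhanced mice, a single mouse lay far from the other 3 for 3 of 30 gene and cell class pairs examined. The rule flags about 1 in 20 when values are independent and come from 1 group. Here the 4 mice had 2 antibodies and the pairs share the mice, so the count cannot be read against that rate. Spp1 in macrophages was 313 CPM in GA-aFuc mouse 2, and the nearest of the others was 62.9 CPM. Plin2 in macrophages was 532 CPM in the same mouse, with the nearest at 269 CPM. Cd9 in monocytes was 162 CPM in GITR/Syn GA-aFuc mouse 1, with the nearest at 251 CPM.

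The library also held 5815 barcodes with at least 500 UMIs that the annotation does not include. Spp1 was 211 CPM in them, against 124 CPM in annotated monocytes and 845 CPM in annotated NK cells, which lie higher. Gpnmb was 25.9 CPM in them, against 13.5 CPM in annotated macrophages, and Fabp5 192 CPM, against 111 CPM in macrophages and 1781 CPM in mregDC, which lie higher. Macrophage markers summed to 5074 CPM in these barcodes, monocyte markers to 933 CPM, fibroblast markers to 678 CPM and mast cell markers to 215 CPM, and their part in these levels was not tested.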

How the results depend on the processing

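The 29 fold changes of members with an unadjusted p under 0.05 in the main edgeR fit had 454 alternative values. Of these, 389 kept their direction and side of the threshold, 7 lost significance, 56 gained it and 2 reversed. Only the fold changes called in the main fit could lose significance, namely Fabp5 in 3 comparisons and Abca1 in 1, all in monocytes. The 7 losses are thus all theirs, and most of the values that kept their side belong to fold changes that were not called. The reversals were Spp1 in macrophages (0.028) and Fabp5 in dendritic cells (0.26), both in GITR/Syn GA-aFuc against GA-aFuc without GA-aFuc replicate 2. With no filter on low counts, members called in macrophages were 3 in GA-aFuc over Untreated, 3 over N297A, 3 in GITR/Syn GA-aFuc against GA-aFuc and 1 in Fc-enhanced over other. In monocytes they were 4 in GA-aFuc over Untreated, 3 in GITR/Syn GA-aFuc against GA-aFuc, 1 in N297A over Untreated and 2 in Fc-enhanced over other, and in dendritic cells 1 in GA-aFuc over Untreated and 1 in GITR/Syn GA-aFuc against GA-aFuc. DESeq2 gave the same monocyte counts as edgeR in GA-aFuc over Untreated (1), over N297A (2) and in GITR/Syn GA-aFuc against GA-aFuc (1), and also called 1 in monocytes in Fc-enhanced over other and 1 in macrophages in GITR/Syn GA-aFuc against GA-aFuc. In monocytes, leaving out the 1% of cells with most UMIs gave 0 in GA-aFuc over Untreated and 1 over N297A, equal cells per mouse gave 1 over N297A, and leaving out clusters with marginal labels gave 1 in Fc-enhanced over other. Fits of the compared treatments alone gave 2 in GA-aFuc over Untreated in monocytes and 2 in dendritic cells, and could not be fitted for N297A against Untreated. The cause of these shifts was not tested, and the share of all genes called in these alternatives is not reported here.

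Leaving out each mouse in turn gave, in macrophages, 0 to 3 members called in GA-aFuc over Untreated and over N297A, 0 to 4 in GITR/Syn GA-aFuc against GA-aFuc and 0 to 2 in Fc-enhanced over other. In monocytes it gave 0 to 3 in GA-aFuc over Untreated, 0 to 2 over N297A, 0 to 3 in GITR/Syn GA-aFuc against GA-aFuc, 0 to 1 in N297A over Untreated and 0 to 2 in Fc-enhanced over other. In dendritic cells it gave 0 to 2 in GA-aFuc over Untreated and 0 to 1 over N297A, in GITR/Syn GA-aFuc against GA-aFuc and in Fc-enhanced over other. The highest counts in macrophages came without GA-aFuc replicate 1, where Spp1 in GITR/Syn GA-aFuc against GA-aFuc was -2.79 (Fabp5 in dendritic cells -1.53). No pairing by replicate number was fitted, because these numbers only name the mice. The Xist level as a term, which separates mouse 1 from mouse 2 in both Fc-enhanced treatments, gave 3 members called in macrophages in GA-aFuc over Untreated, 3 over N297A, 3 in GITR/Syn GA-aFuc against GA-aFuc and 2 in Fc-enhanced over other. In monocytes it gave 4 in GA-aFuc over Untreated, 2 in GITR/Syn GA-aFuc against GA-aFuc, 1 in N297A over Untreated and 3 in Fc-enhanced over other. In this fit 1 residual degree of freedom was left and the spread was taken as common to all genes in both classes. In the class difference, 0 members were called with the mouse as a block and with no replicate block. Shares of cells with a UMI moved with the depth: Trem2 in macrophages was 89.6% with no thinning and 42.02% at 2000 UMIs, Spp1 in NK cells 43.7% and 26.2%, and Fabp5 in mregDC 66.0% at 2000 UMIs. Leaving out cluster 9, fitting 2 groups and the Xist term were chosen after seeing the data. The share of all genes called in the fits without a mouse and with the Xist term is not reported here.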
